A study of Mus musculus with 24 samples.

Results

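The 9 genes described here encode proteins to which the co-chaperone FKBP51 has been linked in the control of Akt signalling and of autophagy. They are *Akt1*, *Akt2*, *Phlpp1*, *Phlpp2*, *Gsk3b*, *Becn1*, *Ulk1*, *Map1lc3b* and *Sqstm1*, and they were chosen by gene name from the 46983 genes in the table of read counts. All 9 were among the 16209 genes tested, which reached 10 counts in each mouse of a group or more, and their counts ranged from 929 to 11333 per mouse. None of the 9 differed in mRNA level with *Fkbp5* genotype, with early life stress (ELS) or with their interaction beyond the spread between mice. Larger differences were found between the genes themselves and between paralogues.

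FKBP51 binds HSP90 and holds client proteins together with enzymes that modify them. For Akt, a kinase activated downstream of growth factor receptors, it acts as a scaffold that brings in the PHLPP phosphatases, which remove a phosphate group from Akt and lower its activity. Active Akt in turn phosphorylates and inhibits GSK3β. FKBP51 also associates with Beclin1, a subunit of the lipid kinase complex that starts the autophagosome membrane. ULK1 is the kinase that initiates autophagy, LC3B (from *Map1lc3b*) is the ubiquitin-like protein attached to the growing membrane, and p62 (from *Sqstm1*) is a receptor that ties cargo to LC3. Much of this regulation is by binding, phosphorylation and protein turnover, none of which an mRNA measurement records.

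Bulk mRNA of hippocampal tissue punches, dorsal and ventral together, was sequenced from 24 adult female mice on a C57BL/6 background, in 4 groups of 6. Per the study, these mice belong to its first cohort, which had gone through behavioural tests and structural MRI. *Fkbp5*lox/lox mice carried floxed *Fkbp5* without Cre recombinase and are called wildtype in the labels. *Fkbp5*Nex mice express Cre from the *Nex* gene (current symbol *Neurod6*), which deletes *Fkbp5* in glutamatergic neurons of the forebrain from embryonic life on. The dentate gyrus is spared, so dentate granule cells, like the other hippocampal cell types, still carry the gene. Each genotype was raised under control conditions or under ELS, in which dam and litter had limited bedding and nesting material from the second to the ninth postnatal day. In bulk tissue, fewer cells of a type and less RNA per cell cannot be told apart.

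Total counts per mouse ranged from 18347283 to 26555623. The values below are CPM (reads of a gene per 1000000 reads of the library), scaled by the trimmed mean of M values (TMM). *Fkbp5* was 53.5 ± 5.95 CPM (SD, n = 6) in *Fkbp5*lox/lox control mice and 59.4 ± 2.29 CPM after ELS. In *Fkbp5*Nex mice it was 14.1 ± 6.39 CPM under control rearing and 13.9 ± 4.999 CPM after ELS. The lowest *Fkbp5*lox/lox mouse, at 47.7 CPM, lay above the highest *Fkbp5*Nex mouse, at 26.5 CPM, so every library matched its genotype label. A pair of libraries stood apart in dentate and pyramidal content together. The summed level of 5 dentate granule cell markers was 887 CPM in *Fkbp5*lox/lox ELS mouse 8 and 647 CPM in *Fkbp5*Nex control mouse 12, while 5 pyramidal neuron markers summed to 347 and 354 CPM there, the lowest values of their groups. Over whole groups, the median dentate sum of *Fkbp5*lox/lox mice was 354 CPM under control rearing and 379 CPM after ELS, and that of *Fkbp5*Nex mice was 193 and 187 CPM. All 5 pyramidal markers and all 5 dentate markers were detected in every mouse. Choroid plexus markers, foreign to hippocampal tissue proper, summed to between 1.05 and 4385 CPM.

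The sequences upstream of the genes are given first. Several of the genes rose and fell together from mouse to mouse, and a link between this and the sequences was not tested. RefSeq promoter windows (250 bases before to 50 after a start, build GRCm38.p6) matched 8 of the 9 genes with 12 starts in all. *Becn1* had no entry. Below are the longest runs of bases of these windows that lie outside annotated exons. They are given for *Phlpp1* and *Ulk1*, which moved together, for *Sqstm1* and *Map1lc3b*, each of which moved with *Becn1*, and for *Gsk3b*, which stands apart in its motifs. They are read 5′ to 3′ on the strand of the gene, and capitals mark a GC box (GGGCGG, the Sp1 motif) or a CCAAT box (CCAAT) in either orientation. *Phlpp1* is from chr1:106171619-106171751 on the plus strand, *Ulk1* from chr5:110810098-110810331 on the minus strand, *Sqstm1* from chr11:50210828-50210889 on the minus strand, *Map1lc3b* from chr8:121590188-121590360 on the plus strand and *Gsk3b* from chr16:38088751-38089000 on the plus strand.
Phlpp1: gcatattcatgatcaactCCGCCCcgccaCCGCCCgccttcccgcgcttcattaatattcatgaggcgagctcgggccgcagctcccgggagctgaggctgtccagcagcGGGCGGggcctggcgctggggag
Ulk1: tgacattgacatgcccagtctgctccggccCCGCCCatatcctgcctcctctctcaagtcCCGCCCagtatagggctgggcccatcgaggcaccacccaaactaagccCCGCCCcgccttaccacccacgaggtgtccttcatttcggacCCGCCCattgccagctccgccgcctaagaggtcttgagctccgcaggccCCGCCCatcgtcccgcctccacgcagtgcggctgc
Sqstm1: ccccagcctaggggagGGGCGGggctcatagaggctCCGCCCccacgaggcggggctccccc
Map1lc3b: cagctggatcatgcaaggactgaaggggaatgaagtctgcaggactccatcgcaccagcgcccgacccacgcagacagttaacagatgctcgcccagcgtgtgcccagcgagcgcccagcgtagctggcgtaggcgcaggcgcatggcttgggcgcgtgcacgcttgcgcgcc
Gsk3b: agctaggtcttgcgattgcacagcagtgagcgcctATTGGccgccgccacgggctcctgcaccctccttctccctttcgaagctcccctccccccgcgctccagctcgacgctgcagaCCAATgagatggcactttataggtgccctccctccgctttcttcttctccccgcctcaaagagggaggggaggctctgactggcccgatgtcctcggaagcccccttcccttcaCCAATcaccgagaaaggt

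The *Ulk1* stretch held 5 GC boxes and the *Phlpp1* stretch 3, and the whole *Phlpp1* window of 300 bases held 6. The *Sqstm1* stretch of 62 bases begins 69 bases before the start, where exon sequence of another gene, *Mgat4b*, ends. It held 2 GC boxes, and 79% of its bases were G or C. *Map1lc3b* had none in its stretch and 1 in its whole window. *Gsk3b* had no GC box and 3 CCAAT boxes in its stretch, 4 in the whole window. Counting whole windows on both strands, a GC box was present in 7 of the 12 windows, against 35.7% of all 32851 promoter windows. These 7 windows belong to 7 of the 8 genes. A CCAAT box was present in 3 of the 12 windows (of *Akt2*, *Phlpp2* and *Gsk3b*), and in 37.4% of all windows. The forkhead motif GTAAACA, bound by the FOXO factors that Akt phosphorylates, was found once, in the first of 2 *Akt1* starts, against 3.65% of all windows. The E-box CACGTG (7.15% of all windows), the longer lysosomal and autophagy gene motif TCACGTGA (0.974%), which contains it, and the glucocorticoid receptor half-site TGTTCT (19%) were in none of the 12 windows. These are matches of letters and not measured binding sites.

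By level per length of exon, the order of the 9 genes was *Sqstm1*, *Akt1*, *Map1lc3b*, *Gsk3b*, *Phlpp1*, *Ulk1*, *Akt2*, *Becn1* and *Phlpp2*. The autophagy receptor gene *Sqstm1* stood at 128 ± 6.92 CPM per kilobase (SD, n = 24), and its lowest mouse was above the highest mouse of every other member. *Akt1* followed at 32.8 ± 1.91 CPM per kilobase and *Map1lc3b* at 26.8 ± 1.68. Per length, *Akt1* exceeded *Map1lc3b* in 24 of 24 mice, by 0.29 ± 0.13 on the log2 scale. *Gsk3b*, at 21.7 ± 1.53 CPM per kilobase, was below *Map1lc3b* in 23 of 24 mice and above *Phlpp1*, at 16.2 ± 1.61, in all 24. *Ulk1* and *Akt2* could not be ordered, at 11.0 ± 0.79 and 10.7 ± 1.13 CPM per kilobase, with *Ulk1* the higher of the pair in 13 of 24 mice. *Becn1* stood at 9.23 ± 0.53 CPM per kilobase, below *Akt2* in 20 mice, and *Phlpp2* was lowest at 7.21 ± 0.75, below *Becn1* in 23 mice. The only neighbours in this order whose ranges over mice did not overlap were *Sqstm1* and *Akt1*, and *Phlpp1* and *Ulk1*. Lengths are the union of annotated exons, and a transcript that uses fewer of them has a level understated by this measure. The counts of mice do not cover this uncertainty. Undivided, *Akt1* lay below *Map1lc3b*, at 121 to 155 CPM against 173 to 233 CPM. The undivided mean of *Gsk3b*, 213 CPM, was above that of *Map1lc3b*, 201 CPM.

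**Figure D1:**
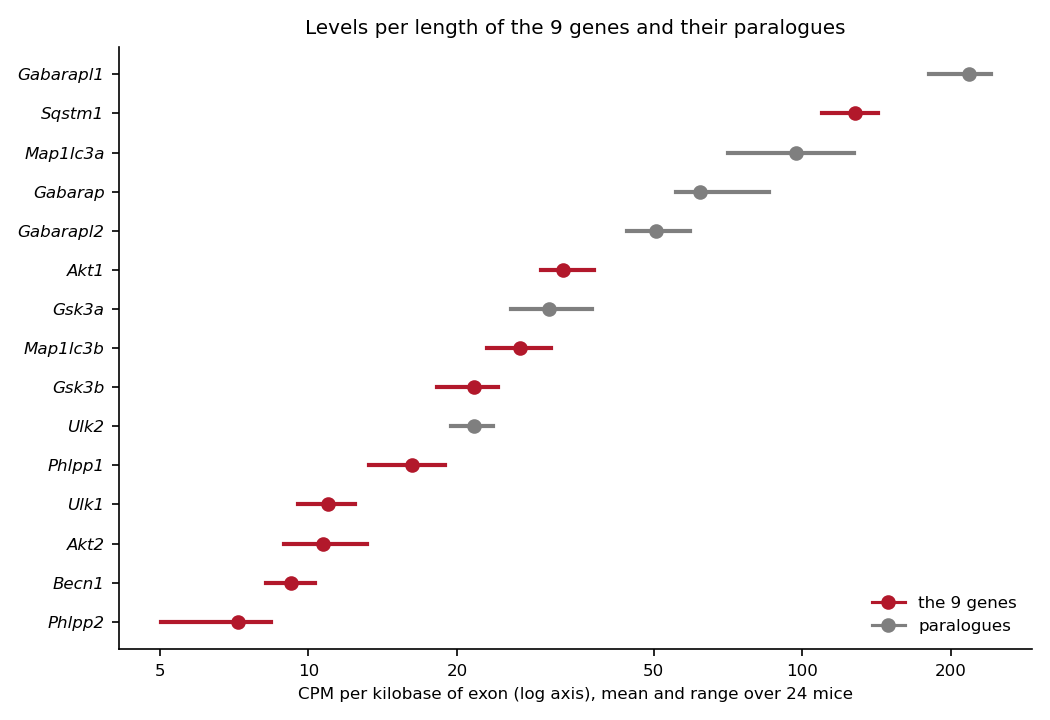
CPM per kilobase of exon on a log axis for the 9 genes (red) and 6 paralogues (grey), with the point at the mean and the line from the lowest to the highest of 24 mice. *Sqstm1* at 128 stands clear of the other 8, and *Map1lc3b* at 26.8 lies below each of its 4 paralogues. Before division by exon length, its mean of 201 CPM was below that of *Gabarapl1* alone.

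Of the Akt kinase genes in the set, *Akt2*, known above all from insulin-stimulated glucose uptake, stood at 0.325 of the *Akt1* level per length (n = 24), with mice from 0.271 to 0.444.

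Of the PHLPP phosphatase genes, *Phlpp1* took 69.1 ± 3.06% and *Phlpp2* 30.9 ± 3.06% of their summed level per length (SD, n = 24, as for the shares that follow). *Gsk3b* took 41.5 ± 2.45% beside *Gsk3a*. *Ulk1* took 33.6 ± 1.77% beside *Ulk2*. Among the genes of the LC3 and GABARAP proteins, which are attached to autophagosome membranes, *Map1lc3b* took 5.91 ± 0.38%, the smallest share of the 5, against 48.0 ± 1.22% for *Gabarapl1*, 21.3 ± 1.45% for *Map1lc3a*, 13.7 ± 0.999% for *Gabarap* and 11.1 ± 0.54% for *Gabarapl2*. Some of these orders rest on the division by exon length. Undivided, *Map1lc3b* had a mean of 201 CPM, below *Gabarapl1* at 438 but above *Gabarapl2* at 117, *Map1lc3a* at 115 and *Gabarap* at 114. *Gsk3b* likewise had 213 CPM against 88.9 for *Gsk3a*. *Map1lc3b* and *Sqstm1*, the transcripts whose proteins are most often read as markers of autophagy, had levels per length in a ratio of 1 to 4.78, with a range over mice from 3.96 to 5.38.

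*Akt1* (chr12:112653821-112674884, minus strand, GRCm38) ranged from 123 to 142 CPM in *Fkbp5*lox/lox control mice (median 131), from 132 to 147 in *Fkbp5*lox/lox ELS (median 136), from 121 to 141 in *Fkbp5*Nex control (median 133) and from 122 to 155 in *Fkbp5*Nex ELS mice (median 137). The groups overlapped, with both medians higher after ELS by a few CPM. The fitted log2 fold change for ELS was 0.06 ± 0.04 (SE) over both genotypes, and its 95% interval ran from -0.02 to 0.13. For genotype it was -0.005 ± 0.034, with an interval from -0.08 to 0.07.

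*Akt2* (chr7:27591552-27640826, plus strand) was more uneven. It ranged from 71.6 to 79.8 CPM in *Fkbp5*lox/lox control (median 77.2), from 63.7 to 79.2 in *Fkbp5*lox/lox ELS (median 73.6), from 64.2 to 93.6 in *Fkbp5*Nex control (median 79.5) and from 67.7 to 91.8 in *Fkbp5*Nex ELS mice (median 77.1). The SD was 12.4 CPM in *Fkbp5*Nex control mice and 3.19 CPM in their wildtype counterparts, and the highest 4 of all 24 mice were *Fkbp5*Nex. The fitted genotype difference was 0.07 ± 0.05 on the log2 scale (interval -0.04 to 0.18), the largest of the 9 genes, and it was 0.13 ± 0.08 after ELS (interval -0.03 to 0.29).

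*Phlpp1* (chr1:106171752-106394250, plus strand) lay between 95.5 and 121 CPM in *Fkbp5*lox/lox control (median 109), between 97.4 and 113 in *Fkbp5*lox/lox ELS (median 104), between 89.6 and 128 in *Fkbp5*Nex control (median 116) and between 104 and 126 in *Fkbp5*Nex ELS mice (median 111). Both the lowest and the highest mouse were *Fkbp5*Nex control. *Phlpp1* had the smallest p of the 9 for genotype, with a log2 fold change of 0.05 ± 0.03 (interval -0.01 to 0.12, adjusted p = 0.545 by edgeR's quasi-likelihood test). With mouse 8 and mouse 12 left out, the pair with the highest dentate sums, the value was -0.01, and with marker sums as covariates and all mice kept it was -0.02. The pyramidal markers include *Neurod6*, the gene from which *Fkbp5*Nex mice express Cre. Their median sum was 626.5 CPM (control) and 596.1 CPM (ELS) in *Fkbp5*lox/lox mice, and 529.9 and 534.9 CPM in *Fkbp5*Nex mice. The median dentate sum also differed by genotype, so these covariates can take out part of a genotype difference.

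*Phlpp2* (chr8:109868542-109944671, plus strand) lay between 56.4 and 71.1 CPM in *Fkbp5*lox/lox control (median 61.7), between 53.4 and 69.8 in *Fkbp5*lox/lox ELS (median 60.1), between 42.5 and 71.0 in *Fkbp5*Nex control (median 59.9) and between 55.1 and 66.0 in *Fkbp5*Nex ELS mice (median 61.6). The 4 medians lay close together. It had the widest range of the 9 genes, 1.67-fold from the lowest to the highest mouse, and the lowest mouse was *Fkbp5*Nex control mouse 52. Its genotype value was 0.002 ± 0.034 on the log2 scale in the fit with surrogate variables. It was -0.21 where the sums of oligodendrocyte, astrocyte, dentate and pyramidal markers were the covariates instead (adjusted p = 0.431), the widest such shift among the genes. Those covariates have the limit given for *Phlpp1*.

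*Gsk3b* (chr16:38089001-38246084, plus strand) had medians of 210 CPM (control) and 208 CPM (ELS) in *Fkbp5*lox/lox mice and of 222 and 216 CPM in *Fkbp5*Nex mice, with mice from 179 to 238. Its genotype difference was 0.01 ± 0.03 on the log2 scale (interval -0.05 to 0.08). Its interaction value, the ELS effect in *Fkbp5*lox/lox mice minus that in *Fkbp5*Nex mice, was 0.07 ± 0.06 (interval -0.06 to 0.20).

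The autophagy genes had close group means. *Ulk1* (chr5:110784488-110810097, minus strand) had group means of 69.7 ± 5.95, 70.7 ± 5.62, 72.1 ± 6.15 and 72.2 ± 3.34 CPM (SD, n = 6 each, in the order *Fkbp5*lox/lox control, then ELS, then *Fkbp5*Nex control, then ELS). *Becn1* (chr11:101285952-101302286, minus strand) had the closest means of all, 65.3 ± 3.21, 64.9 ± 4.50, 65.3 ± 4.59 and 65.2 ± 3.44 CPM. *Map1lc3b* (chr8:121590361-121598760, plus strand) had 200.3 ± 16.9, 197 ± 12.8, 207 ± 14.2 and 202 ± 5.11 CPM. *Sqstm1* (chr11:50199366-50210827, minus strand) had 427 ± 28.9, 427 ± 14.3, 427 ± 35.0 and 436 ± 12.2 CPM. For none of these did a group mean differ from another by as much as the larger SD of the pair. Their genotype values on the log2 scale were 0.01 ± 0.04 for *Ulk1*, -0.005 ± 0.030 for *Becn1*, 0.05 ± 0.03 for *Map1lc3b* and -0.002 ± 0.024 for *Sqstm1*.

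**Figure D2:**
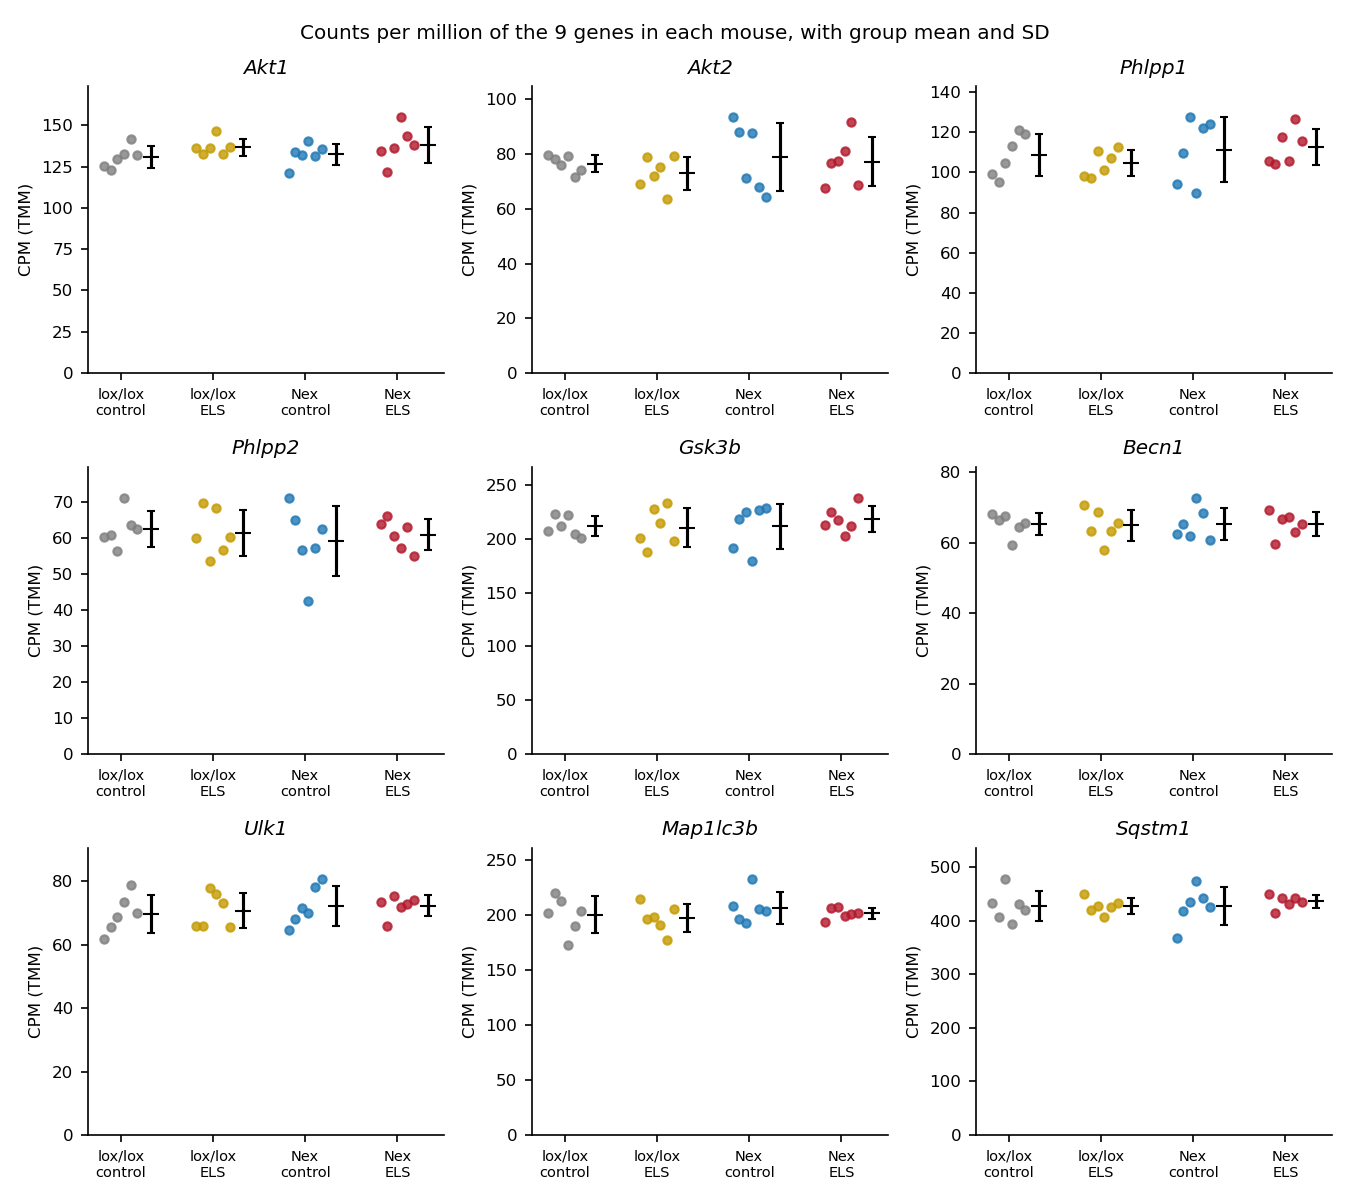
CPM (TMM scaled) of each of the 9 genes in each mouse, 6 mice per group, with the group mean and SD as the black bar and each axis starting at 0. The 4 groups overlap in every panel, and the *Fkbp5*Nex control mice of *Akt2*, *Phlpp1* and *Phlpp2* show the widest spread.

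For every one of the 9 genes, the ranges of all 6 pairs of groups overlapped. In the comparison of *Fkbp5*Nex with *Fkbp5*lox/lox mice over both rearing conditions, 0 of the 9 genes passed an FDR of 0.02 in edgeR's quasi-likelihood test, where 0.117% of all genes tested did (19 genes, *Fkbp5* among them). At an unadjusted p under 0.05 there were also 0 of 9, against 11.5% of all genes. DESeq2 called 70 genes for this comparison and 0 of the 9. The adjusted p-values of the 9 genes ran from 0.545 to 0.990. The median absolute log2 fold change of the 9 was 0.014, against 0.051 over all genes tested. Among mice raised under control conditions edgeR called 0.0494% of genes at the FDR and 8.69% at the unadjusted p, and after ELS 0.0123% and 6.59%. DESeq2 called 53 and 4 genes there. None of the 9 was among them by either tool or threshold.

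For ELS, edgeR called 0 genes at the FDR in any comparison, which is 0% of all genes tested. At the unadjusted p it had 3.56% of genes over both genotypes, 4.86% in *Fkbp5*lox/lox mice and 2.8% in *Fkbp5*Nex mice, and 4.02% for the interaction, with 0 of the 9 genes in each. DESeq2 called 0, 1, 0 and 0 genes in these comparisons, and 0 of the 9. In *Fkbp5*lox/lox mice the value with the smallest p was that of *Phlpp1*, -0.08 ± 0.05 on the log2 scale (interval -0.19 to 0.02). In *Fkbp5*Nex mice it was that of *Akt1*, 0.07 ± 0.05 (interval -0.03 to 0.18). The largest interaction value was that of *Akt2*, -0.11 ± 0.11, whose interval from -0.33 to 0.11 was the widest.

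**Figure D3:**
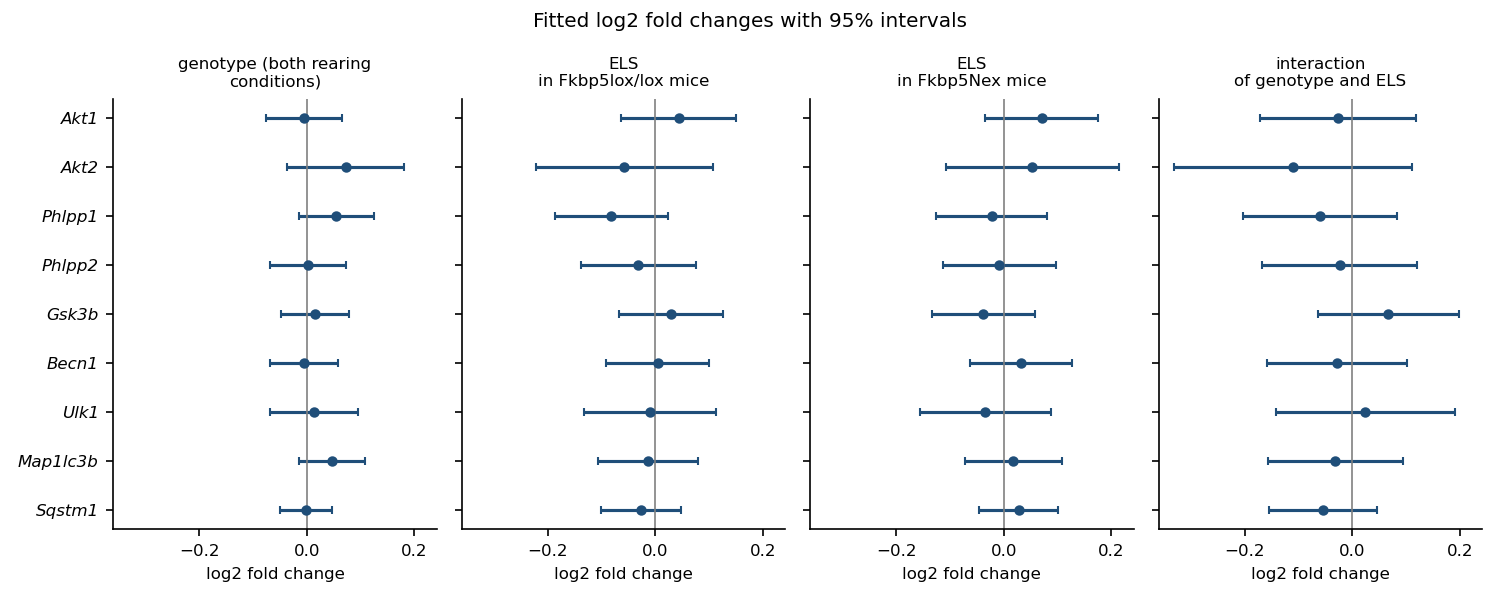
Fitted log2 fold changes with 95% intervals of the 9 genes for genotype (*Fkbp5*Nex against *Fkbp5*lox/lox), for ELS within each genotype and for the interaction. All 36 intervals include 0, and those for genotype are narrowest, lying within -0.08 and 0.18.

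In the fit with 5 surrogate variables, the intervals give the range of change that the values of each gene leave room for. They are not the limit of detection at the FDR, which takes a larger change. The autophagy gene *Uvrag*, described below, had a genotype interval from -13.7% to -3.27% and was still not called (edgeR adjusted p = 0.186). For genotype over both rearing conditions, all 9 lay within -0.08 and 0.18 on the log2 scale. In percent, the interval of *Sqstm1* ran from -3.45% to 3.35%, that of *Becn1* from -4.60% to 4.14%, that of *Phlpp2* from -4.65% to 5.17% and that of *Akt2* from -2.51% to 13.4%. *Fkbp5* itself differed by -75.6% (interval -78.7% to -72.0%). The comparisons within a single genotype or rearing condition left wider room, up to 21.9% for *Akt2* after ELS. These intervals hold for that fit only. With marker sums as covariates instead, the genotype values of *Phlpp2* (-0.21), *Sqstm1* (0.13) and *Becn1* (0.13) lay outside their intervals. Those of *Akt1*, *Phlpp1* and *Ulk1* also lay outside, and those of *Akt2*, *Gsk3b* and *Map1lc3b* inside. All are for whole tissue, and a change in the glutamatergic neurons alone would be diluted by the other cells.

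Ratios between genes of the same mouse do not depend on library scaling, and 6 were tested by exact permutation (two-sided), 4 comparisons each. The *Akt2* to *Akt1* ratio per length was 0.337 (control) and 0.306 (ELS) in *Fkbp5*lox/lox mice, and 0.339 and 0.321 in *Fkbp5*Nex mice. Its fall with ELS in *Fkbp5*lox/lox mice, -0.14 on the log2 scale, had the smallest p of all 24 tests, p = 0.0887 (exact permutation, adjusted p = 0.955), and so is not larger than the spread between mice. The *Phlpp2* to *Phlpp1* ratio was 0.459, 0.467, 0.423 and 0.432 in the same order, with a genotype difference of -0.12 (exact permutation p = 0.180, adjusted p = 0.955). The ratios of *Gsk3a* to *Gsk3b*, *Map1lc3a* to *Map1lc3b*, *Ulk2* to *Ulk1* and *Sqstm1* to *Map1lc3b* differed by at most 0.06 on the log2 scale in any comparison. All 24 adjusted p-values were 0.955. With 6 mice against 6, as for ELS within a single genotype, the smallest p this test can give is 0.00216. After adjustment over all 24 tests, a lone p of that size could not have passed the FDR of 0.02. The absence of a call there is therefore not informative for any single ratio. For genotype and ELS over all 4 groups the smallest possible p was 2.34e-06, so those comparisons could have passed.

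The wider pathway was examined with lists of genes that exclude the 9. Of 31 genes of the PI3K, Akt and mTOR pathway, 0 rose and 0 fell at the FDR in any of the 7 comparisons. For genotype, 3 were higher and 2 lower at an unadjusted p under 0.05, a threshold that 11.5% of all genes passed. The list's median absolute log2 fold change was 0.041 against 0.051 over all genes, genes of low count included. The smallest p-values were those of *Igf1r*, the receptor for insulin-like growth factor 1, at 0.17 ± 0.06 on the log2 scale (edgeR adjusted p = 0.271), and of *Pik3r1*, the main regulatory subunit of PI3K, at 0.11 ± 0.04 (adjusted p = 0.361). For ELS they were those of *Foxo4*, at -0.14 ± 0.06, and *Pik3cb*, a catalytic subunit of PI3K, at -0.07 ± 0.03, both with an adjusted p of 0.9995 by edgeR.

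Of 43 other genes of the autophagy machinery, 0 passed the FDR in any comparison. For genotype, 0 were higher and 3 lower at an unadjusted p under 0.05, again beside 11.5% of all genes, with a median absolute log2 fold change of 0.024. *Uvrag*, whose product joins Beclin1 in one form of the lipid kinase complex, stood at -0.13 ± 0.04 on the log2 scale (edgeR adjusted p = 0.186), and *Atg5*, needed to attach LC3 to membranes, at -0.10 ± 0.04 (adjusted p = 0.330). For ELS the smallest p-values were those of *Atg5* (-0.07 ± 0.04) and of *Calcoco1* (-0.06 ± 0.04), which encodes a receptor for autophagy of the endoplasmic reticulum. Of 5 genes of other proteins linked with FKBP51 (*Skp2*, *Tbc1d4*, *Usp49*, *Cdk5* and *Dnmt1*), 0 passed the FDR or the unadjusted threshold in any comparison. Those with the smallest p for genotype were *Dnmt1*, at -0.03 ± 0.03, and *Tbc1d4*, a substrate of Akt, at 0.06 ± 0.07, and for ELS *Cdk5*, at 0.02 ± 0.03, and *Tbc1d4*, at -0.05 ± 0.08.

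With the group means taken out, the 9 genes still varied from mouse to mouse, by a pooled SD of 0.08 on the log2 scale for *Akt1* and *Sqstm1*, 0.09 for *Becn1* and *Map1lc3b*, 0.11 for *Gsk3b* and *Ulk1*, 0.15 for *Phlpp1*, 0.16 for *Akt2* and 0.17 for *Phlpp2*. Set against the 500 genes nearest in level, *Sqstm1* was among the steadiest, with 9.8% of them less variable, and *Akt1* had 14.8%. *Akt2*, *Phlpp2* and *Phlpp1* were on the variable side, with 75.4%, 73% and 70.8%.

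Some of the genes varied together. Over 24 mice, 8 of the 36 pairs had an adjusted permutation p under 0.05 for Pearson's r (mice permuted within groups), and 3 of these also for Spearman's rho. These 8 pairs (22.2% of the 36) had an r of at least 0.54 in size, as did 7.56% of all pairs of genes tested, genes of low count included. *Becn1* and *Sqstm1* rose and fell together (r = 0.65, permutation p = 0.00125, adjusted p = 0.0194; rho = 0.69, permutation p = 0.00073, adjusted p = 0.0263). *Phlpp2* ran against *Becn1* (r = -0.68, permutation p = 0.00089, adjusted p = 0.0194; rho = -0.62, permutation p = 0.00407, adjusted p = 0.0488). *Phlpp1* and *Ulk1* rose and fell together (r = 0.62, permutation p = 0.00449, adjusted p = 0.0323; rho = 0.63, permutation p = 0.00252, adjusted p = 0.0454). Without the mice farthest from the median on the first-named gene, r was 0.56, -0.61 and 0.60 for these pairs. *Phlpp2* against *Sqstm1* had r = -0.73 (permutation p = 0.00162, adjusted p = 0.0194) and rho = -0.58 (permutation p = 0.0068, adjusted p = 0.0521), and r fell to -0.53 without mice 52 and 12 of the *Fkbp5*Nex control group. *Akt2* ran against *Gsk3b* (r = -0.61, permutation p = 0.00954, adjusted p = 0.0429; rho = -0.62, permutation p = 0.00784, adjusted p = 0.0521), with r at -0.53 without mice 64 and 12 of that group. It also ran against *Ulk1* (r = -0.55, permutation p = 0.00724, adjusted p = 0.0372; rho = -0.56, permutation p = 0.00868, adjusted p = 0.0521), where r was -0.40 without them. The other pairs with an adjusted p under 0.05 for r were *Becn1* with *Map1lc3b* (r = 0.58, permutation p = 0.0054, adjusted p = 0.0324; rho = 0.54, permutation p = 0.0116, adjusted p = 0.0597) and *Akt1* with *Ulk1* (r = 0.54, permutation p = 0.00434, adjusted p = 0.0323; rho = 0.51, permutation p = 0.0159, adjusted p = 0.0717). Without the 2 farthest mice, r was 0.50 and 0.59 there. No sequencing or extraction batch is labelled, so these relations were not recomputed within batches.

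**Figure D4:**
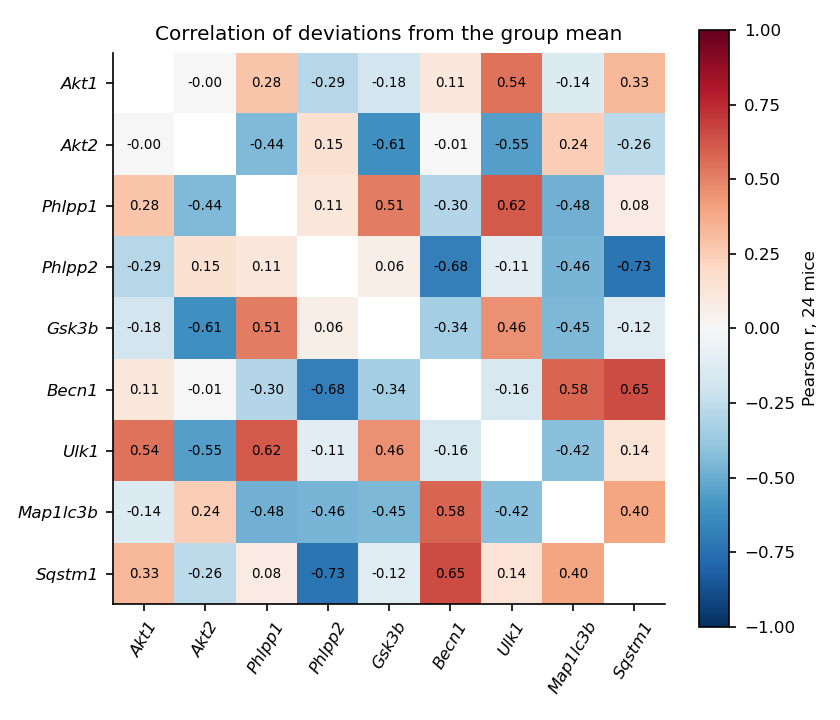
Pearson r between the 9 genes over 24 mice, computed on log2 CPM minus the group mean, with blue for negative and red for positive values. *Becn1* runs with *Sqstm1* (0.65) and *Map1lc3b* (0.58) and against *Phlpp2* (-0.68), and *Akt2* runs against *Gsk3b* and *Ulk1*.

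Markers of cell types moved with some of the genes in the same way. Of 81 relations between the 9 genes and the summed markers of 9 cell or tissue types, 2 had an adjusted permutation p under 0.05 for both measures, both with *Phlpp1*. It rose with the sum of 6 oligodendrocyte markers (r = 0.72, permutation p = 0.00072, adjusted p = 0.0482; rho = 0.77, permutation p = 0.00023, adjusted p = 0.0186), and r was 0.79 once mouse 12 (*Fkbp5*Nex control) and mouse 44 (*Fkbp5*lox/lox control), the most extreme in this sum, were left out. Of all genes tested, 3.68% had an r at least as large in size with this sum. It fell with the sum of 5 dentate granule cell markers (r = -0.64, permutation p = 0.00119, adjusted p = 0.0482; rho = -0.67, permutation p = 0.0012, adjusted p = 0.0486), with r at -0.58 without *Fkbp5*Nex control mouse 12 and *Fkbp5*lox/lox ELS mouse 8, and 10.5% of all genes were as strongly related. *Phlpp1* had an r of similar size with astrocyte (-0.64), choroid plexus (0.61) and microglia markers (-0.59), which did not pass (adjusted permutation p from 0.0799 to 0.156). How the marker sums relate to each other was not tested, so these may not be separate relations. The oligodendrocyte sum ranged from 1439 to 5215 CPM in *Fkbp5*lox/lox mice under control rearing, from 1528 to 4517 after ELS, and in *Fkbp5*Nex mice from 1536 to 6464 and from 2091 to 4446, with all 6 markers detected in every mouse. *Akt2* rose with the sum of 5 microglia markers, which passed for rho alone (rho = 0.71, permutation p = 0.00182, adjusted p = 0.0491; r = 0.64, permutation p = 0.0125, adjusted p = 0.144). Of all genes, 6.26% had an r as large in size with this sum. The smallest such share, 0.90%, was that of *Map1lc3b* with 3 interneuron markers (r = -0.59, permutation p = 0.00426, adjusted p = 0.0799), which did not pass. With marker sums as covariates in place of surrogate variables, 0 of the 9 genes passed the FDR in any comparison. The part of tissue composition in the pairs of genes above was not tested.

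**Figure D5:**
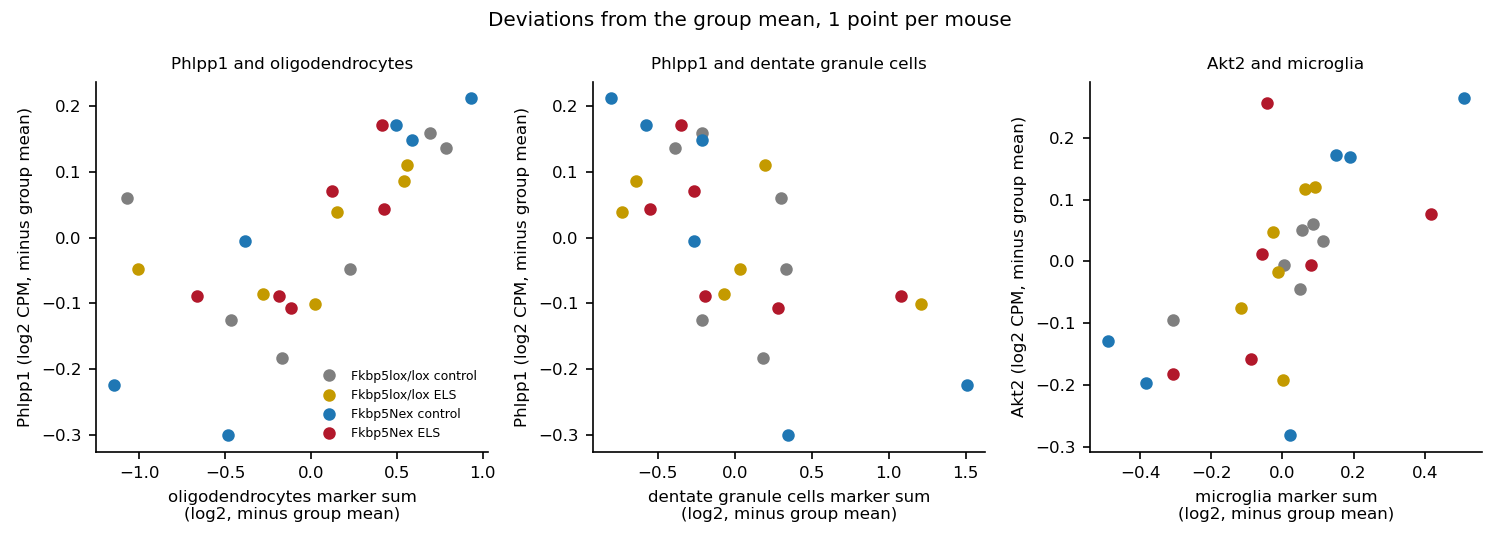
Deviation of each mouse from its group mean (log2 scale) in *Phlpp1* or *Akt2* level against that in a summed marker level, 24 mice coloured by group. *Phlpp1* rises with oligodendrocyte markers (r = 0.72) and falls with dentate markers (r = -0.64), and *Akt2* rises with microglia markers (r = 0.64).

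By the same within-group deviations, each gene had 1 tested gene outside the set whose pattern was most like its own over the 24 mice, given here as a description. For *Akt1* it was *Pex6* (r = 0.86), a peroxisome assembly ATPase, and for *Akt2* it was *Gjb6* (r = 0.90), the gap junction protein connexin 30 of astrocytes. For *Phlpp1* it was the glutamine transporter gene *Slc38a1* (r = 0.91) and for *Phlpp2* the histone methyltransferase gene *Setdb1* (r = 0.89). *Gsk3b* was nearest to *Ncoa7* (r = 0.89) and *Becn1* to *Gm14539* (r = 0.90), annotated as a processed pseudogene on chromosome X. *Ulk1* was nearest to *Clip3* (r = 0.91). *Map1lc3b* was nearest to *Cox7a2l* (r = 0.86), a factor in the assembly of respiratory supercomplexes, and *Sqstm1* to *Ppa1* (r = 0.92), a cytosolic pyrophosphatase. Values of the genes that overlap others are uncertain, since whether counting used strand is not given in the sources used here. *Becn1* overlaps *Cntd1*, *Sqstm1* overlaps *Mrnip* and *Map1lc3b* overlaps *Zcchc14*, each on the opposite strand. *Map1lc3b*, *Phlpp1* and *Phlpp2* also overlap *Gm20388*, *Gm38235* and *Gm16349* on their own strand, *Akt1* overlaps a microRNA and *Gsk3b* overlaps snoRNAs, whereas *Akt2* and *Ulk1* overlap no other annotated gene.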

How the data were processed

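Bulk hippocampal mRNA of 24 female mice was analysed, with groups taken from the labels. The deposited values are raw counts of reads per gene, made with HISAT2 2.0.5 and featureCounts 1.5.0-p3 per the labels. The genome build, annotation, strandedness and treatment of multiply mapped reads are not given in the sources used here. The study's methods mention an outlier library that was removed, and all 24 libraries labelled are present here.

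Here, genes that reached 10 counts in each mouse of a group or more (16209 of 46983) were fitted in R 4.3.3 with edgeR 4.0.16 (TMM, quasi-likelihood test, Benjamini-Hochberg adjustment, FDR of 0.02), with 4 group means and 5 surrogate variables from sva 3.50.0. DESeq2 1.42.0, the study's tool, was an alternative. Intervals are 95% and follow from the log2 fold change and its standard error. Total counts of 18347283 to 26555623 gave every one of the 9 genes at least 929 counts, so spread between mice and not counting error limited precision. Log2 CPM used a prior count of 1. Ratios were compared by exact permutation, of genotype within rearing condition (853776 arrangements over both strata) and of ELS within genotype (924 each), with adjustment over all 24 tests. Correlations used 100000 permutations within groups in Python 3.11.15 (numpy 2.4.6, scipy 1.17.1, pandas 2.3.3, matplotlib 3.10.9). Positions and exon lengths come from GENCODE vM21 (GRCm38) through the Ensembl identifiers, by which *Rubcn* was also found. The fit was tested on simulated counts. The 9 genes and the gene lists were chosen with earlier results of these data known. Besides the 9, genes named are *Fkbp5*, paralogues (of which 1 is not reported here), the most alike gene, and per list any gene called plus the 2 with the smallest p for genotype and for ELS. Mice of a group are separate animals, and litters are not given. The study assigned whole litters to ELS or control rearing, while the tests count each mouse as independent. Where mice shared a litter, p-values for ELS may be too small and its intervals too narrow. Alternatives were a fit free of surrogate variables, size factors of DESeq2, filterByExpr, no filter, an FDR of 0.05, only the groups compared, each mouse left out, raw-count ratios and ratios with surrogate variables regressed out. Leaving out both high-dentate mice and using marker sums as covariates were chosen after seeing the data.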

Additional observations from a re-analysis of the deposited data

Results flagged for a closer look

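In groups of 6 mice, a mouse was singled out where its gap to the nearest other, divided by the range of the group, was above Dixon's critical value for 6 values. Of 60 groups examined (the 9 genes and 6 ratios in 4 groups), 7 were marked so, where chance alone marks about 1 in 20.

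*Akt1* was 146.7 CPM in *Fkbp5*lox/lox ELS mouse 68, above the other 5 mice at 132.5 to 136.7. *Ulk1* was 65.82 CPM in *Fkbp5*Nex ELS mouse 38, below the others at 71.89 to 75.29. *Map1lc3b* was 233.0 CPM in *Fkbp5*Nex control mouse 52, above the others at 193.0 to 207.9. That mouse also had the lowest *Phlpp2*, *Phlpp1* and *Gsk3b* levels and the highest *Becn1* level of all 24 mice, and its *Gsk3a* to *Gsk3b* ratio of 1.709 was above the others at 1.319 to 1.432. The same ratio was 1.82 in *Fkbp5*Nex ELS mouse 60, against 1.264 to 1.459. The *Map1lc3a* to *Map1lc3b* ratio was 2.558 in *Fkbp5*Nex control mouse 12, one of the mice that stood apart in tissue content, against 3.661 to 4.155. The *Sqstm1* to *Map1lc3b* ratio was 5.379 in *Fkbp5*lox/lox ELS mouse 72, against 4.693 to 4.839.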

How the results depend on the processing

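The count of 0 of 9 genes past the threshold held under every alternative run, each mouse left out included, in all 7 comparisons, except that fits of only the mice compared cover the 4 comparisons of 2 groups. Leaving out each mouse in turn, log2 fold changes of the 9 genes lay between -0.23 and 0.16 and the smallest adjusted p was 0.353. Under the other 9 settings they lay between -0.29 and 0.15, with a smallest adjusted p of 0.378, both for *Phlpp2* under control rearing with marker sums as covariates. Signs of these uncalled values were not stable. They changed in 28 of 63 values without surrogate variables, 30 with marker sums as covariates, 16 without mice 8 and 12, and at most 18 when a single mouse was left out (*Fkbp5*lox/lox control mouse 44). For genotype over both rearing conditions, *Akt2*, *Phlpp1* and *Map1lc3b* kept a positive value with each mouse left out (0.04 to 0.09, 0.03 to 0.09 and 0.03 to 0.07), while *Akt2* was -0.03 and *Phlpp1* -0.02 with marker sums. The pyramidal and dentate sums themselves differed in median by genotype. Over all genes, the genotype count was 19 in edgeR, 70 with DESeq2 and 3 without surrogate variables. The cause was not tested. None of the 24 ratio comparisons passed under 26 alternatives, with a smallest adjusted p of 0.571. For ELS within a single genotype, a lone ratio could not have passed, because the smallest possible p is too large for that adjustment. The count is therefore informative mainly for the comparisons over both genotypes and both rearing conditions. The level order was the same without TMM. No paired analysis was possible because the groups share no mouse numbers. Depth did not limit these genes, but effects within single cell types are beyond bulk tissue.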
